A study of Saccharomyces cerevisiae with 10 samples.

Results

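Cdc48 extraction and ubiquitin shuttle genes are described here in budding yeast (Saccharomyces cerevisiae) that made αENaC, a foreign membrane protein which forms the α subunit of an epithelial sodium channel. The members were fixed by name: CDC48, NPL4, UFD1, SHP1, UBX4, RAD23, DSK2, UFD2, PNG1 and UBI4. Each of the 10 genes had 1 probe set, out of 5449 genes on 5498 probe sets that name a single S. cerevisiae gene. Per the labels, 3 arrays came from yeast with HA-tagged αENaC on a multicopy pRS426 plasmid with the constitutive GPD promoter, and 7 arrays came from yeast with the vector pRSGPD426 alone. All cultures grew at 26 °C in selective medium to mid log phase. The background strain, the clones and whether each array is a culture of its own are not given in the labels, although the design text speaks of biological replicates. Numbers in the sample titles divide the arrays into 3 sets. Titles 1 to 4 (set 1) are αENaC 1, αENaC 2, control 1 and control 2, titles 5 and 6 (set 2) are αENaC 3 and control 3, and titles 11 to 14 (set 3) are controls 4 to 7.

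Cdc48 is a ring-shaped ATPase that pulls ubiquitin-tagged proteins out of membranes and complexes. With its cofactors Ufd1 and Npl4 it draws proteins condemned by endoplasmic reticulum (ER) quality control into the cytosol. There Ufd2 can lengthen the ubiquitin chain, Png1 strips N-linked sugars, and the shuttles Rad23 and Dsk2, which bind ubiquitin at 1 end and the proteasome at the other, carry the protein to be broken down. UBI4 encodes ubiquitin repeats in tandem and is known as the ubiquitin gene that yeast induces under stress. Earlier work in yeast showed αENaC to be a substrate of ER-associated degradation.

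Each value below is a level on a log2 scale of signal in units of the array mean, after quantile normalization. Levels of different genes are not comparable, since each probe set binds with its own strength. All 10 members lay above the background level of −2.03 on every array. The median signal of S. cerevisiae probe sets was 25.6 to 44.4 times as high as for probe sets whose named gene is not in its annotation. This ratio split by set, with 36.6 to 44.4 on the arrays of set 1 and 25.6 to 29.0 on those of sets 2 and 3. Its bearing on the differences was not tested. Arrays of the same group and set correlated at r = 0.997 to 0.999 across probe sets, apart from control 4, which stood at 0.980 to 0.985 with controls 5 to 7. Arrays of the same group in different sets stood at 0.925 to 0.977. The p-values measure the spread between arrays, which may be in part technical. Over all arrays that spread holds the differences between sets, while in the fits by set or with the set as a block it comes from near-identical arrays. Signal in bulk cultures reads RNA as a share of all RNA on the array, and not protein or ATPase activity, and fewer cells with a transcript cannot be told apart from less of it per cell.

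None of the 10 members passed the test of αENaC against control over all arrays (limma, adjusted p under 0.05). Across all 5498 probe sets, 75 were called higher, which is 1.36%, and 20 lower, which is 0.364%. Without quantile normalization these counts were 45 and 1, and on the z scores as deposited they were 89 and 4. limma called 0 with the replicate number as a block (1127 at an unadjusted p under 0.05, against 998 without the block). At an unadjusted p under 0.05, 4 members were higher and 0 lower, where 10.2% of all probe sets were higher: CDC48, NPL4, DSK2 and UBI4. The median difference of the 10 members was 0.18 on the log2 scale, against 0.02 over all probe sets, and 8 of the 10 were positive, where 53.8% of all probe sets were. The highest estimates were those of the shuttle DSK2, the polyubiquitin gene UBI4 and the Cdc48 cofactor NPL4. All 10 ran from 0.978-fold for SHP1 to 1.44-fold for DSK2. Without quantile normalization the median of all probe sets itself shifted to 0.16, and that of the members to 0.30.

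**Figure D1:**
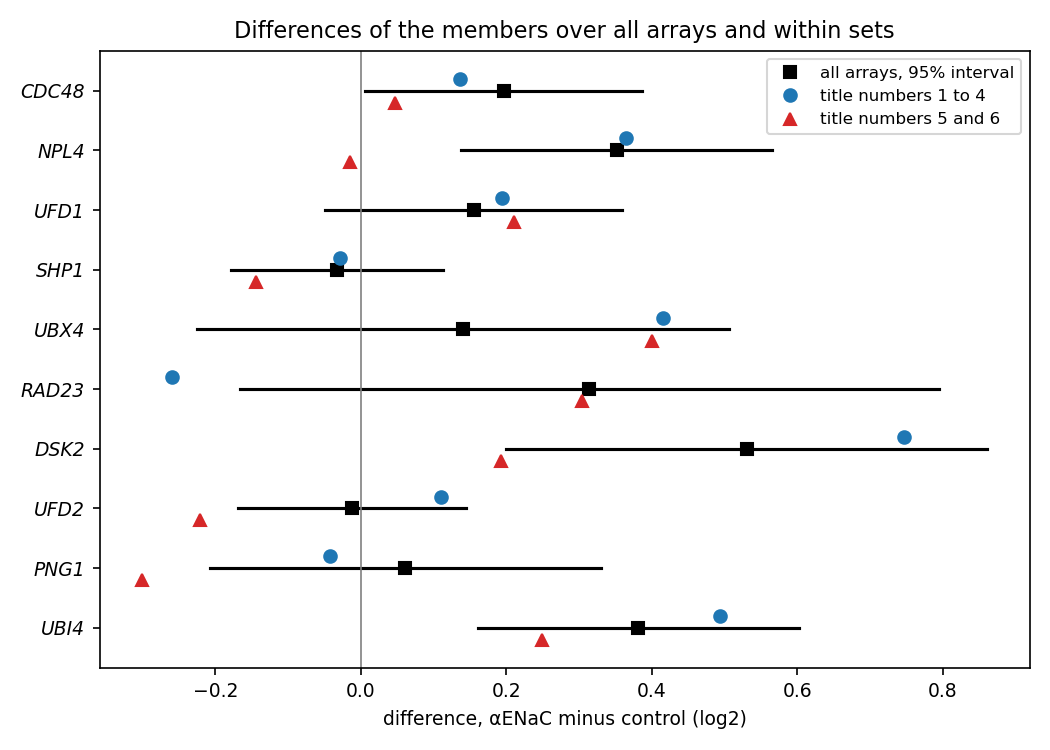
The difference of each member, αENaC minus control on the log2 scale, is drawn as a black square with its unadjusted 95% interval over 3 and 7 arrays, with the difference within title numbers 1 to 4 (blue circle) and 5 and 6 (red triangle). DSK2, UBI4, NPL4 and CDC48 have intervals above 0. RAD23, UFD2 and NPL4 have their within-set differences on opposite sides of 0, that of NPL4 in set 2 only just (−0.01).

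CDC48 (YDL126C), the ATPase itself, had levels of 2.81, 2.78 and 2.63 in αENaC yeast, against 2.66, 2.65, 2.58, 2.64, 2.41, 2.45 and 2.40 in controls 1 to 7. αENaC 1 and 2 were above every control, and αENaC 3 lay among controls 1 to 4. The difference was 0.20 ± 0.09 (SE, n = 3 and 7; limma adjusted p = 0.261), with an interval of 0.01 to 0.39, but it was −0.08 with each array centred on its median. Within set 1 it was 0.14 ± 0.08 (limma adjusted p = 0.218), and in set 2, with 1 array in each group, 0.05. All set 3 controls lay below both set 1 controls.

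NPL4 (YBR170C), which binds and unfolds ubiquitin at the mouth of the ring, had levels of −0.09, −0.12 and −0.36 in αENaC yeast, against −0.47, −0.47, −0.34, −0.51, −0.70, −0.66 and −0.64 in controls. The groups overlapped through set 2 alone, where αENaC 3 was slightly below control 3. The difference was 0.35 ± 0.10 (limma adjusted p = 0.0973), or 1.28-fold with an interval of 1.10 to 1.48. It passed without αENaC 3 (0.44, adjusted p = 0.0477) and without control 3 (0.38, adjusted p = 0.0471). Its adjusted p lay between 0.0471 and 1 among 22 alternatives.

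UFD1 (YGR048W), the partner of Npl4, stood at 0.01, 0.01 and −0.18 in αENaC yeast, against −0.12, −0.26, −0.39, 0.01, −0.20, −0.23 and −0.29 in controls. Control 4 was as high as the highest αENaC array. The difference of 0.16 ± 0.09 (limma adjusted p = 0.397) has an interval of −0.05 to 0.36, so a rise of more than 1.28-fold falls outside it.

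The other cofactors bind Cdc48 through a UBX domain. SHP1 (YBL058W), the yeast relative of mammalian p47, was the steadiest member, with a range of 0.21 over the 10 arrays. It averaged 1.30 ± 0.03 in αENaC yeast and 1.34 ± 0.07 in controls (SD, n = 3 and 7). Its difference of −0.03 ± 0.07 (limma adjusted p = 0.828) was 0.08 without quantile normalization. For z scores it was 0.16, in SD units of the array and not log2.

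UBX4 (YMR067C), a cofactor known to act in ER-associated degradation, had levels of 0.02, 0.05 and 0.31 in αENaC yeast. Its control levels were −0.38 and −0.39 in set 1, −0.09 in set 2, and 0.35, 0.19, 0.16 and 0.06 in set 3. Within each of sets 1 and 2 the αENaC arrays were above their controls, while the set 3 controls reached as high as αENaC yeast. Over all arrays the difference was 0.14 ± 0.17 (limma adjusted p = 0.687). With the set as a fixed block it was 0.41 (adjusted p = 0.0107) and with the set as a random block 0.38 (adjusted p = 0.0232). The adjusted p of UBX4 lay between 0.0107 and 1 among 22 alternatives.

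**Figure D2:**
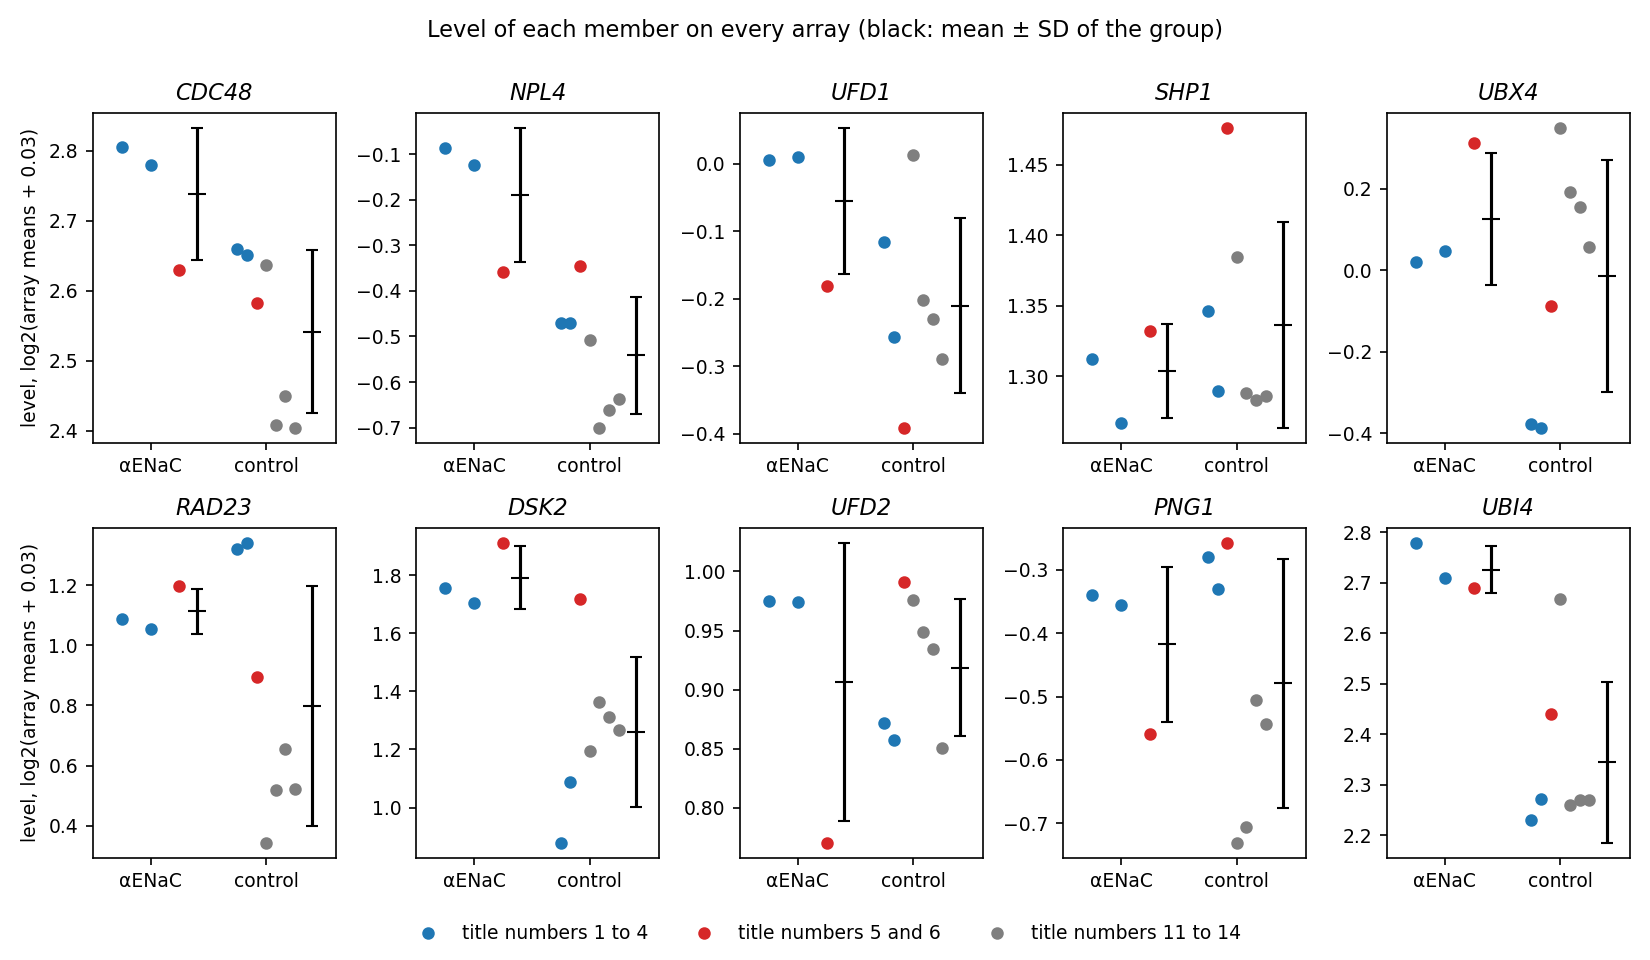
The level of each member (log2 of array means + 0.03) is shown for every αENaC and control array, coloured by title number set, with the mean ± SD of each group in black, on a scale of its own for each gene. UBI4 is the member with all 3 αENaC arrays (2.69 to 2.78) above all 7 controls (2.23 to 2.67). RAD23 has the widest controls (0.34 to 1.34), next to αENaC arrays at 1.05 to 1.20, which are fewer and not in set 3.

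Of the shuttles, DSK2 (YMR276W) had the largest estimate of the 10. Its levels were 1.76, 1.70 and 1.91 in αENaC yeast, against 0.88, 1.09, 1.72, 1.20, 1.36, 1.31 and 1.27 in controls. Control 3 alone reached into the αENaC range. The difference was 0.53 ± 0.15 (limma adjusted p = 0.103), or 1.44-fold with an interval of 1.15 to 1.82. It passed without control 3 (0.61, adjusted p = 0.0207), on the z scores (adjusted p = 0.00881), and with the set as a fixed (0.56, adjusted p = 0.0176) or random block (0.56, adjusted p = 0.0119). Its adjusted p lay between 0.00881 and 1 among 22 alternatives.

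RAD23 (YEL037C), the other shuttle, which also serves nucleotide excision repair, had levels of 1.09, 1.05 and 1.20 in αENaC yeast. Controls 1 and 2 were higher than these at 1.32 and 1.34, control 3 was lower at 0.89, and controls 4 to 7 were lower still at 0.34, 0.52, 0.66 and 0.52. The difference over all arrays, 0.31 ± 0.22 (limma adjusted p = 0.462), takes its positive sign from set 3. It was −0.07 with title numbers 1 to 6 alone (adjusted p = 0.860) and −0.07 with the set as a fixed block (adjusted p = 0.703).

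UFD2 (YDL190C), the chain-lengthening ligase, averaged 0.91 ± 0.12 in αENaC yeast and 0.92 ± 0.06 in controls (SD, n = 3 and 7). Its αENaC arrays split by set, with 0.98 and 0.97 in set 1 near the top of the control range (0.85 to 0.99) and 0.77 in set 2 below it. The difference was −0.01 ± 0.07 (limma adjusted p = 0.949), and 0.12 if arrays were not quantile normalized, or 0.15 in SD units for z scores. PNG1 (YPL096W), the peptide N-glycanase, averaged −0.42 ± 0.12 and −0.48 ± 0.20 in the same order. Its difference of 0.06 ± 0.12 (limma adjusted p = 0.823) was −0.13 with title numbers 1 to 6 alone.

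UBI4 (YLL039C), the polyubiquitin gene, was the 1 member whose groups did not overlap, where 4.97% of all probe sets had every αENaC array above every control and 3.62% had every one below. Its levels were 2.78, 2.71 and 2.69 in αENaC yeast, against 2.23, 2.27, 2.44, 2.67, 2.26, 2.27 and 2.27 in controls. Control 4 came closest to the αENaC arrays, and the other 6 controls stayed at or below 2.44. The difference was 0.38 ± 0.10 (limma adjusted p = 0.0854), or 1.30-fold with an interval of 1.12 to 1.52. It passed without control 4 (0.44, adjusted p = 0.0197) and with the set as a fixed (0.41, adjusted p = 0.0479) or random block (0.41, adjusted p = 0.0297). With these blocks 3 members rose and 0 fell (UBX4, DSK2 and UBI4), where 7.38% of all probe sets were higher and 6.86% lower with the fixed block, and 6.51% and 4.71% with the random block. UBI4 was 0.11 with median centring (adjusted p = 0.766) and 0.27 without quantile normalization (adjusted p = 0.292). Its adjusted p lay between 0.0197 and 1 among 22 alternatives. The protein repeats of UBI4 are near-identical to the ubiquitin part of RPL40A, RPL40B and RPS31, which encode ubiquitin fused to a ribosomal protein. Whether their probe sets share signal was not tested, and any shared signal could not be told apart. The differences of those 3 genes were −0.11 ± 0.07, −0.18 ± 0.08 and 0.01 ± 0.06 (limma adjusted p = 0.291 to 0.936).

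Within title numbers 1 to 4, with 2 αENaC and 2 control arrays and the spread taken from all sets, 4 of the 10 members rose and 0 fell. Among all probe sets 17.7% were called higher and 17.6% lower in that comparison, 35.3% in all (973 and 970, but 986 and 593 without quantile normalization). DSK2 rose by 0.75 ± 0.08 (limma adjusted p = 0.00148), averaging 1.73 in αENaC and 0.98 in control yeast. UBI4 rose by 0.49 ± 0.14 (adjusted p = 0.0285), UBX4 by 0.42 ± 0.09 (adjusted p = 0.0119) and NPL4 by 0.37 ± 0.07 (adjusted p = 0.00755). The DSK2 call held under each of 19 alternatives and the NPL4 call under 18, with the exception of leaving out αENaC 1 (adjusted p = 0.0590). The UBX4 and UBI4 calls were lost when any 1 of the 4 arrays was left out (adjusted p = 0.0609 to 0.0734 for UBX4 and 0.101 to 0.133 for UBI4). That of UBI4 was also lost without quantile normalization (0.38, adjusted p = 0.104), with median centring (0.30, adjusted p = 0.125) and on the z scores (adjusted p = 0.0785). RAD23 stood at −0.26 ± 0.09 (adjusted p = 0.0610), and passed as lower under 5 of 19 alternatives. These were the 4 arrays alone, without (adjusted p = 0.00250) and with the replicate block (adjusted p = 0.00208), leaving out control 4 (adjusted p = 0.00469) or control 6 (adjusted p = 0.0354), and the z scores (adjusted p = 0.0474). Its adjusted p lay between 0.00208 and 0.213 among 19 alternatives. The count of members called was 1 without αENaC 1, 2 without αENaC 2, control 1 or control 2, and 7 without control 4. It was also 7 with the replicate number as a block in the 4 arrays alone. The calls over all 5498 probe sets moved with it, to 638 without αENaC 1, 633 without αENaC 2, 794 without control 1, 750 without control 2, 3220 without control 4 and 3274 with that block, against 1943.

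Set 2 has 1 array in each group, so its differences carry no test. UBX4 was 0.40 higher in αENaC 3 than in control 3, RAD23 0.30, UBI4 0.25, UFD1 0.21, DSK2 0.19 and CDC48 0.05. NPL4 was at −0.01, SHP1 at −0.14, UFD2 at −0.22 and PNG1 at −0.30. UBX4 and UFD1 had nearly the same difference in both sets, with 0.42 and 0.19 in set 1.

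The difference of set 1 minus that of set 2 rests on the lone arrays αENaC 3 and control 3, which are assumed here to vary like the others, so what is particular to either array cannot be told apart from a difference between sets. Under that assumption it was called for 3 of the 10 members, where 17.4% of all probe sets were called. Set 1 was larger for 524 probe sets (9.53%) and set 2 for 432 (7.86%), but these counts were 351 and 526 without quantile normalization, and 473 and 659 for z scores. The difference between sets was 0.55 ± 0.14 for DSK2 (limma adjusted p = 0.0398), 0.33 ± 0.09 for UFD2 (adjusted p = 0.0488) and −0.56 ± 0.16 for RAD23 (adjusted p = 0.0496). DSK2 was higher with αENaC in both sets, and UFD2 and RAD23 had opposite signs in them. The 3 calls lie close to the threshold and all were lost without quantile normalization (adjusted p = 0.0515 to 0.119) and with median centring (adjusted p = 0.101 to 0.139). The count was 0 without αENaC 1, αENaC 2, control 1, control 5 or control 7, 1 without control 2 or control 6, and 5 without control 4. The calls over all probe sets also moved widely with an array left out, as given in the closing section. These member counts are therefore not a result about the members.

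**Figure D3:**
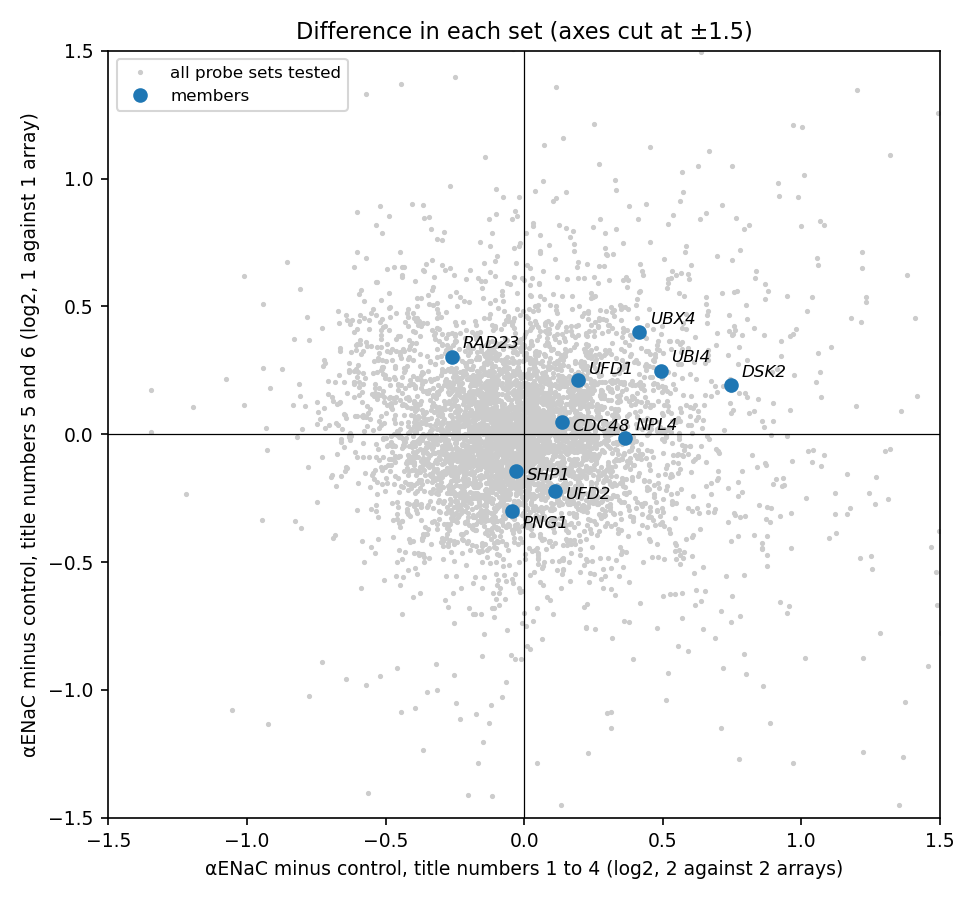
Each point gives the difference, αENaC minus control on the log2 scale, within title numbers 1 to 4 (horizontal axis) and within 5 and 6 (vertical axis), for all probe sets (grey, 45 of them beyond the axes) and for the 10 members (blue). UBX4, UBI4, DSK2, UFD1 and CDC48 lie in the upper right, and RAD23 in the upper left at −0.26 and 0.30.

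The controls themselves spread widely for some members. All 4 set 3 controls lay below both set 1 controls for 4 members (CDC48, NPL4, RAD23 and PNG1), where 41.8% of all probe sets did. They lay above both for UBX4 and DSK2, where 31.7% of all probe sets did. The controls of RAD23 ranged over 0.998, those of DSK2 over 0.84 and those of UBX4 over 0.74, against 0.14, 0.21 and 0.29 for the 3 αENaC arrays. These ranges are not like for like, since the αENaC arrays are fewer and none is in set 3. Control 4 was above all of controls 5 to 7 for 7 of the 10 members, where 39.8% of all probe sets were. The gap to their mean was 0.40 for UBI4, 0.25 for UFD1, and 0.22 for both CDC48 and UBX4. It was below all of controls 5 to 7 for RAD23, DSK2 and PNG1, where 41.6% of all probe sets were, and the gaps to their mean were −0.22, −0.12 and −0.15. Over all arrays 1 member, UBI4, was called without control 4, and 3 members with the set as a block, as given beside them. Calls over all probe sets also moved with an array left out, as given in the closing section.

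Other genes of the pathway, on lists chosen with earlier results of these data known, were measured in full. Of 11 other Cdc48 cofactors 0 passed the test over all arrays. At an unadjusted p under 0.05, 4 were higher, where 10.2% of all probe sets were. Their median was 0.24, and 9 were positive, where 53.8% of all probe sets were. Within set 1, 5 were called higher and 2 lower, where 17.7% and 17.6% of all probe sets were. In set 2, with 1 array in each group, the median was −0.095 and 3 were positive. DFM1, a derlin that works with Cdc48 at the ER membrane, was at 0.30 ± 0.07 (limma adjusted p = 0.0765). Each αENaC array (0.91 to 0.97) was above each control (0.55 to 0.79), where 4.97% of all probe sets had that order. DOA1, a ubiquitin-binding cofactor, was at 0.30 ± 0.12 (adjusted p = 0.211). Of the 4 other ubiquitin receptors and shuttles 0 passed, with a median of 0.23. At an unadjusted p under 0.05, 2 were higher, where 10.2% of all probe sets were. Their median was smaller within the sets, at 0.05 in set 1 and 0.09 in set 2. For 3 of the 4, all set 3 controls lay below both set 1 controls, where 41.8% of all probe sets did. The shuttle DDI1 was at 0.25 ± 0.09 (adjusted p = 0.176), and each of its αENaC arrays was also above each control. The proteasome subunit RPN1, a docking site for shuttles, was at 0.35 ± 0.14 (adjusted p = 0.231), with 0.11 in set 1 and 0.16 in set 2.

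Of 8 other ubiquitin supply genes 0 passed over all arrays, with a median of 0.10. Within the sets the median was 0.02 in set 1 and −0.01 in set 2, with 1 array in each group. Over all arrays, at an unadjusted p under 0.05, 0 were higher and 1 was lower, where 563 and 435 of all 5498 probe sets were. RFU1, an inhibitor of the ubiquitin-recycling enzyme Doa4, was at −0.45 ± 0.18 (limma adjusted p = 0.214). DOA4 was at 0.34 ± 0.16 (adjusted p = 0.277), with 0.57 in set 1 and −0.08 in set 2.

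Of 14 genes of ER and ribosome quality control ligases, which mark substrates ahead of Cdc48, 3 rose and 0 fell, where 1.36% of all probe sets were called higher and 0.364% lower. The median of the 14 was 0.17, with 0.17 in set 1 and 0.06 in set 2. DER1, a membrane component of the Hrd1 ligase, rose by 0.53 ± 0.10 (limma adjusted p = 0.0278). ASI3, of the Asi ligase in the nuclear envelope, rose by 0.45 ± 0.07 (adjusted p = 0.0158). HRD3, the lumenal partner of Hrd1, rose by 0.39 ± 0.08 (adjusted p = 0.0362), with levels of −1.12, −1.16 and −0.99 in αENaC yeast, against −1.61 to −1.37 in controls. The HRD3 call held under 8 of 22 alternatives, that of DER1 under 13 and that of ASI3 under 15. HRD3 was lost without any 1 of αENaC 1 to 3 or controls 1, 5, 6 or 7 (adjusted p = 0.0550 to 0.198), DER1 without αENaC 1 or 2 or controls 5, 6 or 7 (adjusted p = 0.0501 to 0.164), and ASI3 without αENaC 1 (adjusted p = 0.136) or αENaC 2 (adjusted p = 0.105). With the replicate number as a block all 3 calls were lost (adjusted p = 0.160 for HRD3, 0.111 for DER1 and 0.148 for ASI3). Median centring also ended all 3 (adjusted p = 0.0755, 0.0567 and 0.0691), as did title numbers 1 to 6 alone (adjusted p = 0.168, 0.0793 and 0.128) and averaging the arrays of a group and set (adjusted p = 1 for each). Without quantile normalization HRD3 (0.61, adjusted p = 0.0753) and ASI3 (0.63, adjusted p = 0.0768) did not pass, and HRD3 also not on z scores (adjusted p = 0.115) or with a trended robust variance (adjusted p = 0.0526). Of the genes set beside these lists, RPN4, the activator of proteasome genes, rose by 0.73 ± 0.12 (adjusted p = 0.0180), with 1.27, 1.31 and 1.23 in αENaC yeast, against 0.39 to 0.98 in controls. That call held under 16 of 22 alternatives. It was lost without αENaC 1 (adjusted p = 0.137) or αENaC 2 (adjusted p = 0.118), with median centring (adjusted p = 0.0682), with the replicate block (adjusted p = 0.182), with title numbers 1 to 6 alone (adjusted p = 0.174) and with arrays of a group and set averaged (adjusted p = 1). HAC1, the transcription factor gene of the unfolded protein response, had a difference of 0.16 ± 0.11 (adjusted p = 0.438), which median centring turned to −0.07.

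**Figure D4:**
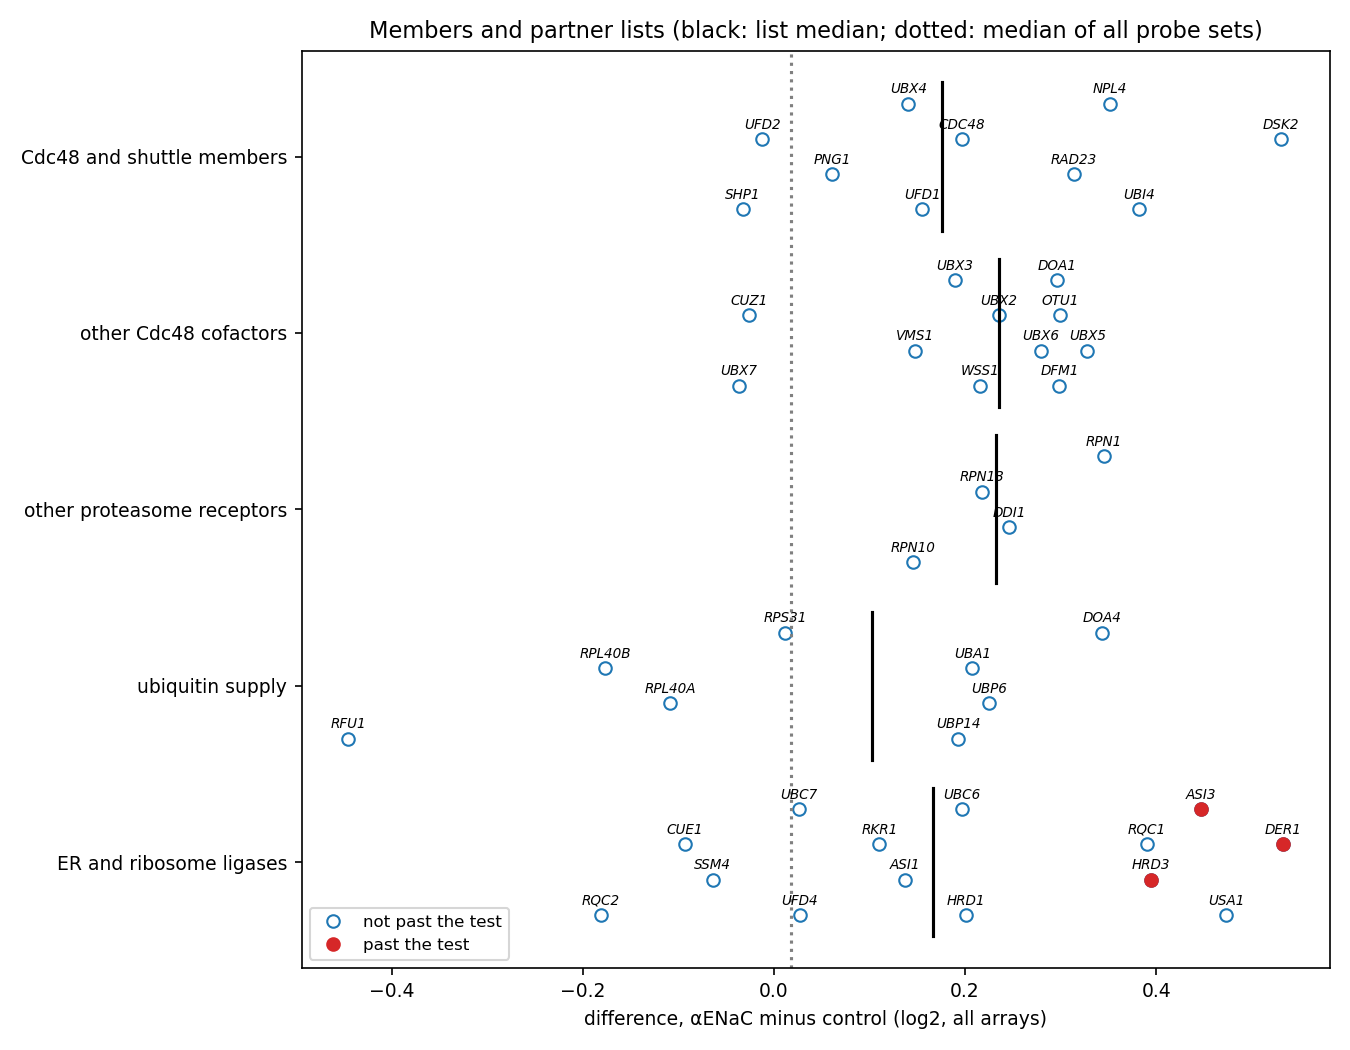
The difference of each gene over all arrays, αENaC minus control on the log2 scale, is shown for the 10 members and the 4 lists of other pathway genes, with the list median as a black line and the median of all probe sets (0.02) dotted. The filled red points are DER1, ASI3 and HRD3, the genes past the test, and each list has its median to the right of the dotted line, at 0.10 to 0.24.

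The profile of UBI4 over the 10 arrays, centred on its mean, was set against those of the other 4958 probe sets above background. Closest by root mean square difference were SSH4, an adaptor of the Rsp5 ubiquitin ligase, at 0.06 on the log2 scale, ATH1, the acid trehalase, at 0.06, MYO3, a type I myosin, at 0.07, DGR2 at 0.07 and TRE1, another Rsp5 adaptor, at 0.07. SSH4 was at the background level in control 1 (−2.05). The choice by likeness fixes that these 5 genes share the pattern of UBI4. Their differences were 0.24 to 0.38 over all arrays (limma adjusted p = 0.103 to 0.201). Closest to CDC48 were RPN6, a proteasome lid subunit, at 0.03, STE11, a kinase of the mating pathway, at 0.04, DFG5, a cell wall enzyme, at 0.04, BET4, a subunit of a prenyl transferase, at 0.04, and BPT1, a vacuolar transporter, at 0.04. Their differences were 0.17 to 0.22 (limma adjusted p = 0.201 to 0.390).

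**Figure D5:**
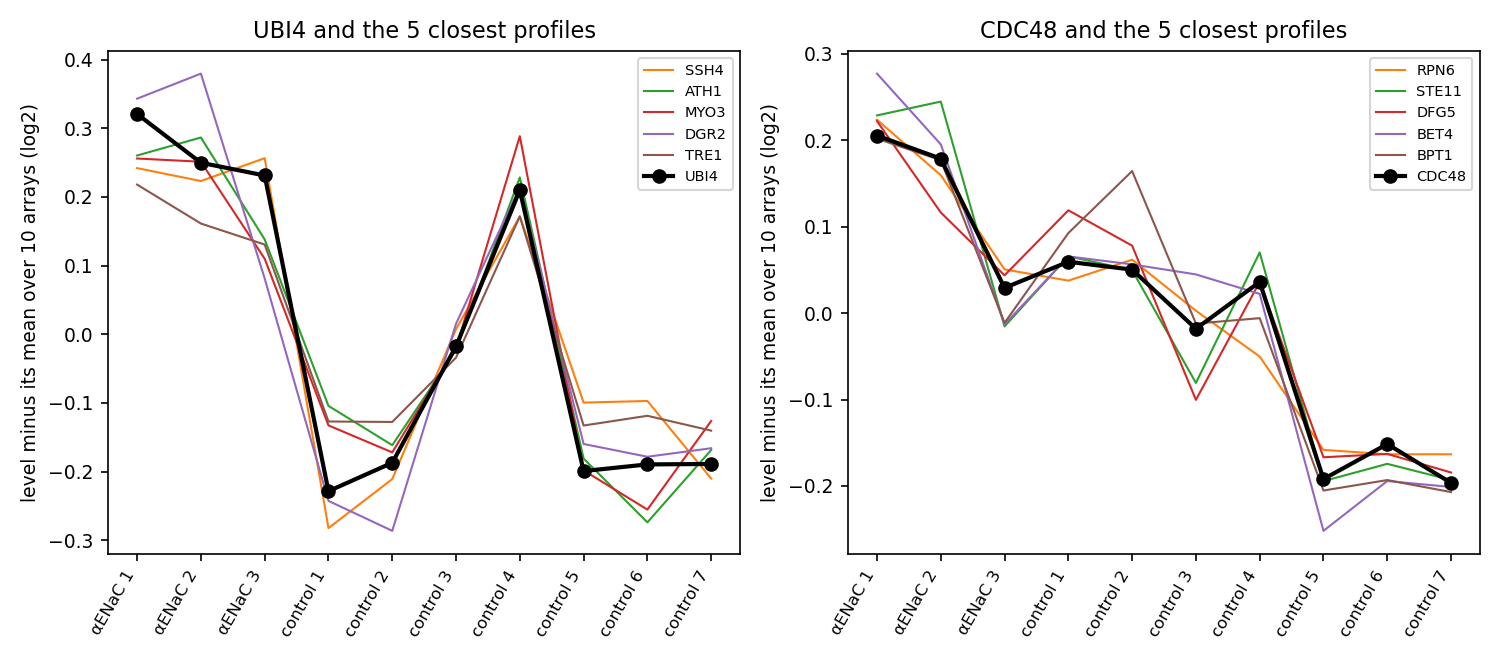
Levels on the 10 arrays, each gene minus its own mean (log2), are shown for UBI4 (left) and CDC48 (right) in black, with the 5 closest profiles in colour. UBI4 and its neighbours are high on the 3 αENaC arrays and on control 4, while CDC48 and its neighbours are lowest on controls 5 to 7.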

How the data were processed

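The authors deposited 1 table of array values; per the labels' protocols, hot phenol was used to extract RNA, and the Affymetrix 3' IVT Express kit to label it. From the values, each deposited value is a score, the z score of a probe set within its array (mean 0, SD 1 over 10715 probe sets). The steps from probe signals to these scores are not stated in the material at hand. The αENaC transcript itself is not measured, so labels were not checked against it.

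To obtain signal relative to the array mean, the lowest score of an array was subtracted from its scores and the result divided by the size of that lowest score, which takes the lowest value as 0. Then 0.03 was added, log2 taken, and arrays were quantile normalized. On this scale differences of low genes are understated. Gene names are those of the platform annotation, updated through the R64 RefSeq gene table. The background is the 95th percentile of 1746 probe sets named outside the S. cerevisiae annotation. No filter on low values was applied in the main test.

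The 2-sided comparison of groups used lmFit and eBayes of limma 3.58.1 (R 4.3.3) without covariates. It had 8 residual degrees of freedom, and p-values were adjusted by Benjamini-Hochberg over 5498 probe sets, with a threshold of 0.05. Differences within sets come from a fit of 5 group-by-set means with 5 residual degrees of freedom. Errors of differences are SE and intervals are unadjusted 95% intervals. The steps were tested on simulated data. The number of arrays limits the precision.

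Replicate numbers 1 to 3 occur in both groups. Arrays with the same number deviated together from the mean of their group (r = 0.41, 0.22 and 0.17), all over the 0.1 set for a pairing, so the replicate block was run as an alternative. Some arrays with different numbers deviated together as much or more: r was 0.39, 0.40 and 0.31 for αENaC 3 with controls 5 to 7, and 0.27 for αENaC 2 with control 1. A fit with this block uses the 3 numbered pairs only, with 2 residual degrees of freedom. The set random block had a correlation of 0.716. The members, lists, tests and alternatives were chosen with earlier results of these data known. The text names all members, RPN4, HAC1, the genes of each list past the test or else the 2 with the smallest p, the 5 profiles closest to UBI4 and to CDC48, and the ubiquitin fusion genes beside UBI4. A planned search of promoters and proteins was not run. Other alternatives changed the scaling, pseudocount, filter on dim probe sets, variance model and arrays used.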

Additional observations from a re-analysis of the deposited data

Results flagged for a closer look

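Some differences of members and of RPN4 were called as unlike between title number sets. The test rests on 1 array per group in set 2 and assumes that they vary like the others. Genes on the lists of other pathway genes were called as well and are not given here. The difference of set 1 minus that of set 2 was 0.55 for DSK2, 0.33 for UFD2 and −0.56 for RAD23 (limma adjusted p = 0.0398, 0.0488 and 0.0496), and 0.65 for RPN4 (adjusted p = 0.0224). The RPN4 difference was called under 10 of 15 alternatives, that of DSK2 under 7, RAD23 under 5 and UFD2 under 3.

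Among the controls, control 4 lay far from the other 6 for RFU1, at −0.67, and for DOA4, at −0.15. Chance alone flags about 1 in 20 such groups if all controls vary alike, but control 4 stood apart across probe sets. It was above all of controls 5 to 7 for 39.8% of all probe sets and below them for 41.6%. These flags are therefore not a result about RFU1 or DOA4.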

How the results depend on the processing

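Over all arrays the count of members called stayed at 0, with exceptions that were all rises: 1 for z scores, 3 with a fixed block for the set, 3 with a random one, and 0 to 2 with an array left out (1 without αENaC 3 or control 4, 2 without control 3). In those blocked fits 7.38% and 6.51% of all probe sets were called higher, and the spread comes largely from near-identical arrays. Calls over all probe sets also moved with an array left out, so the member counts there are not a result about the members. The count over all probe sets, 95, was 46 without quantile normalization, 39 with median centring, 783 and 617 with the set as a fixed and a random block, 20 with title numbers 1 to 6, 0 with arrays of a group and set averaged, 0 with the replicate block, and 12 to 237 with an array left out. The lowest adjusted p over all probe sets with the replicate block was 0.0951. With 0 members called in the main fit as well, that block could change no call of a member. The difference between sets could not be computed without αENaC 3 or control 3.

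Within set 1 the count of members, 4, was 8 with its 4 arrays alone, 7 with the replicate block in those arrays, and 1 to 7 with an array left out. All probe sets called there, 1943, became 3309, 3274, and 633 to 3220. The count whose difference differs between sets, 3, was 0 without quantile normalization, 0 with median centring, 1 with a pseudocount of 0.01, 1 with a trended robust variance, and 0 to 5 with an array left out. Over all probe sets it was 956, but 612 with median centring and 193 to 2472 with an array left out.

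Signs turned mostly for values near 0. Without quantile normalization, SHP1 was at 0.078 and UFD2 at 0.12 over all arrays, SHP1 at 0.0070 and PNG1 at 0.021 within set 1, and UBX4 at −0.063 between sets. On the z scores these were 0.16, 0.15, 0.041 and 0.0057, with UFD1 at 0.022 between sets. With median centring CDC48 was at −0.083, HAC1 at −0.066, and UBX4 at −0.014 between sets. RAD23 and PNG1 were at −0.072 and −0.13 with the set as a fixed block, with the replicate block and with title numbers 1 to 6, at −0.022 and −0.10 with the random block, and PNG1 at −0.058 with arrays averaged. With an array left out, UFD2 ran from −0.046 to 0.056 over all arrays (2.57e-06 without control 3), SHP1 from −0.057 to 5.43e-05 within set 1, and UFD1 from −0.088 to 0.053 between sets. The single-gene values kept direction and side of the threshold in 394 of 462 comparisons over all arrays, 159 of 190 within set 1 and 123 of 165 between sets. The cause of these changes was not tested.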
